A study of Mus musculus with 91 samples.

Results

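The genes described here encode the nuclear-encoded subunits of the mitochondrial respiratory chain, complexes I to IV. Members were the array probes whose gene symbol starts with Ndufa, Ndufb, Ndufc, Ndufs, Ndufv, Sdh, Uqcr, Cox4i, Cox5, Cox6 or Cox7. These name starts held 73 symbols, of which 12 assembly factors, 1 pseudogene (Ndufs5-ps) and Cox7a1 were left out. The remaining 59 genes, of 19057 gene symbols on the array, were read by 89 of 45281 probes. Complex I (NADH dehydrogenase) had 35 members, complex II (succinate dehydrogenase) 4, complex III (ubiquinol-cytochrome c reductase) 7 and complex IV (cytochrome c oxidase) 13. Complexes were assigned by the start of the symbol alone, which places Ndufa4 in complex I. For the 23 genes with several probes the brightest was taken, and it was the same probe in all tissues. No probe was named for Ndufs5, Ndufa4l2, Ndufb1, Uqcrb or Cox7c.

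The respiratory chain sits in the inner mitochondrial membrane. Complexes I and II take electrons from NADH and succinate, complex III passes them to cytochrome c, and complex IV hands them to oxygen. Complexes I, III and IV pump protons as they do so, and ATP synthase uses the gradient. Each complex has a few core subunits that carry the redox centres and, apart from complex II, many accessory subunits. In white adipocytes this chain supplies the ATP and the tricarboxylic acid cycle turnover behind lipid synthesis, and hepatocytes are rich in mitochondria.

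The study fed male C57BL/6J mice a high-fat diet (HFD), a purified diet rich in fat with added cholesterol, or the AIN-76 semi-purified normal diet (ND), and measured RNA on Illumina MouseWG-6 v2 arrays to follow diet-induced obesity over time. Epididymal white adipose tissue (EAT) was measured at weeks 2, 4, 8, 20 and 24, with 3 pooled RNA samples for each diet and week, so 30 arrays in 10 groups. Mesenteric white adipose tissue (MAT) was measured at the same weeks with 1 pool per diet and week, so 10 arrays. Liver was measured every 2 weeks to week 8 and then every 4 weeks to week 24 on both diets, and in a baseline group at 0 weeks, with 3 arrays in each of 17 groups, so 51 arrays. The mice were 5 weeks old at 0 weeks, and 7, 9, 11, 13, 17, 21, 25 and 29 weeks old at weeks 2 to 24. All mice were male and of 1 inbred strain, and the number of mice in an EAT pool is not given in the sources used here. Whether a liver array holds a pool is not given either, so the p-values measure the spread between these samples.

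On each EAT array 39.78% to 47.67% of probes had a detection p under 0.05 and are called detected. On a MAT array the share was 35.81% to 45.22%. Every level below is a normalized log2 intensity of 1 probe, and levels of different probes are not compared. Of the 59 members 45 were detected on all 30 EAT arrays and 48 on all 10 MAT arrays. Sdha, Ndufs1 and Cox7b2 were detected on 0 of 30 EAT arrays, and Uqcrfs1 on 3. The adipocyte list of 14 genes averaged 12.25 to 12.91 in EAT and 11.31 to 12.38 in MAT, against 8.57 to 9.09 in liver. The hepatocyte list of 12 genes averaged 12.64 to 13.26 in liver, and 10.07 to 11.08 in all 6 EAT pools of week 8, HFD and ND alike.

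On 6 of 81 arrays with replicates, many members lay low together. Their median deviation from the mean of the other arrays of the same group was -0.62 in EAT on HFD at 4 weeks (pool 1), -1.04 in EAT on HFD at 24 weeks (pool 2) and -0.97 in EAT on ND at 20 weeks (pool 1). In liver it was -0.43 on HFD at 6 weeks (array 2), -1.17 on HFD at 16 weeks (array 1) and -0.92 on ND at 8 weeks (array 1). On the other 75 arrays it ran between -0.28 and 0.63. On these 6 arrays 25 to 43 members lay more than 0.5 below their group, against 1.01% to 5% of all probes.

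Much the same members were low on these arrays. In all, 19 members lay below -0.5 on all 6 arrays, of which 14 were complex I subunits, 0 complex II, 1 complex III (Uqcr11) and 4 complex IV (Cox5b, Cox6a1, Cox6b1 and Cox6c). Ndufa1, a small membrane-spanning subunit of complex I, deviated by -1.09, -2.11 and -1.496 on the EAT arrays (HFD 4 weeks, HFD 24 weeks and ND 20 weeks), and by -1.25, -1.52 and -1.78 on the liver arrays (HFD 6, HFD 16 and ND 8 weeks). Ndufa10, by contrast, deviated by 0.28, 0.15 and -0.07 on the 3 EAT arrays and by 0.05, -0.03 and 0.06 on the liver arrays. It was among 11 members that lay below -0.5 on none, with Ndufa9, Ndufs1, Ndufv1, Sdha, Uqcrc1, Uqcrc2, Uqcrfs1, Uqcrq, Cox4i2 and Cox7b2. Across the 59 genes, the deviations of any 2 of the 6 arrays correlated at 0.732 to 0.92 (Pearson, 15 pairs), a description in which genes are not independent. These arrays were picked by the members' own levels, so counts given without them below are a description and support nothing. The part that RNA quality or sample handling had in this pattern was not tested.

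**Figure D1:**
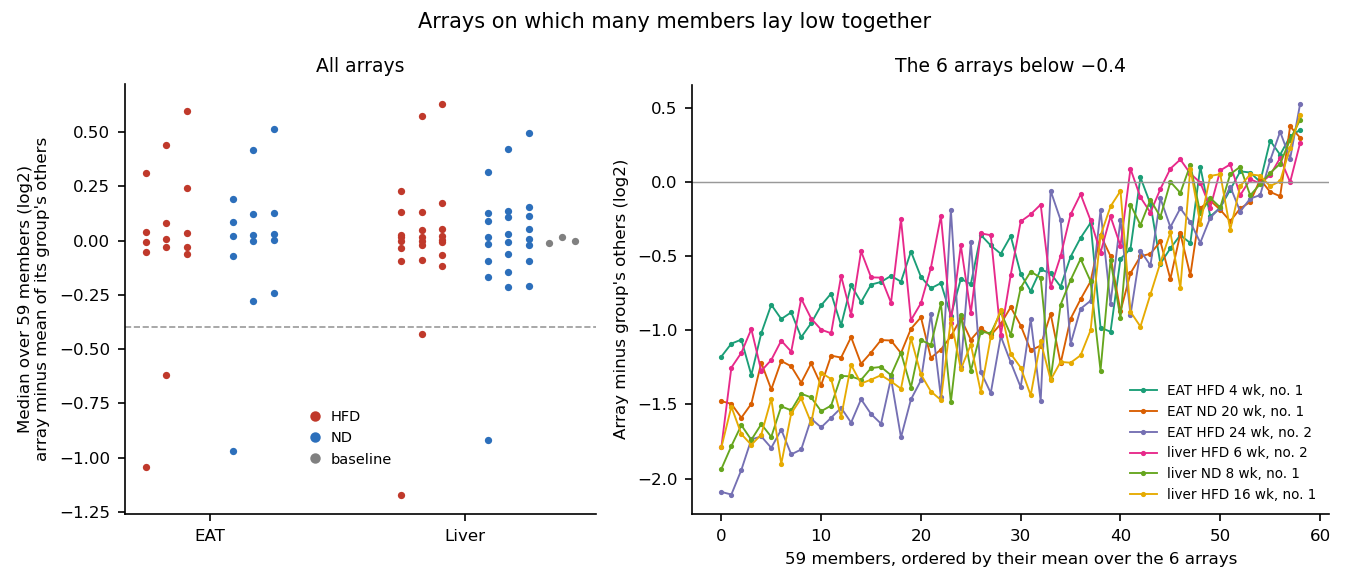
Left, the median deviation of the 59 members on each of the 81 EAT and liver arrays from the other arrays of its group (log2), with a dashed line at -0.4; right, the deviations of all members on the 6 arrays below that line. The 6 arrays lie between -1.17 and -0.43, apart from the other 75, which lie between -0.28 and 0.63.

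A second feature of the arrays touched the week-2 contrast. The background of an array, the 5th percentile of its intensities, ran between 109.9 and 120.7 for 9 EAT arrays (HFD at 24 weeks, ND at 24 weeks and ND at 2 weeks) and between 75.66 and 92.05 for the remaining 21. Within a tissue, 9 EAT members were lower on every higher-background array than on any other: Cox6c, Cox7a2, Ndufb2, Ndufb4, Ndufb5, Ndufb9, Ndufb10, Sdhb and Sdhd. In MAT 7 of these genes did the same across 3 higher-background and 7 lower-background arrays. Cox6c, a small subunit of complex IV, lay at 8.60 to 10.61 on the higher-background EAT arrays and at 12.55 to 13.59 on the others, with no value between. The EAT contrasts at 4, 8 and 20 weeks lie within the lower-background arrays and that at 24 weeks within the higher-background ones. Only at 2 weeks were the diets on different sides, and there diet and array background cannot be told apart. The MAT pools of 2 weeks were split in the same way, with HFD among the lower-background arrays and ND among the higher.

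**Figure D2:**
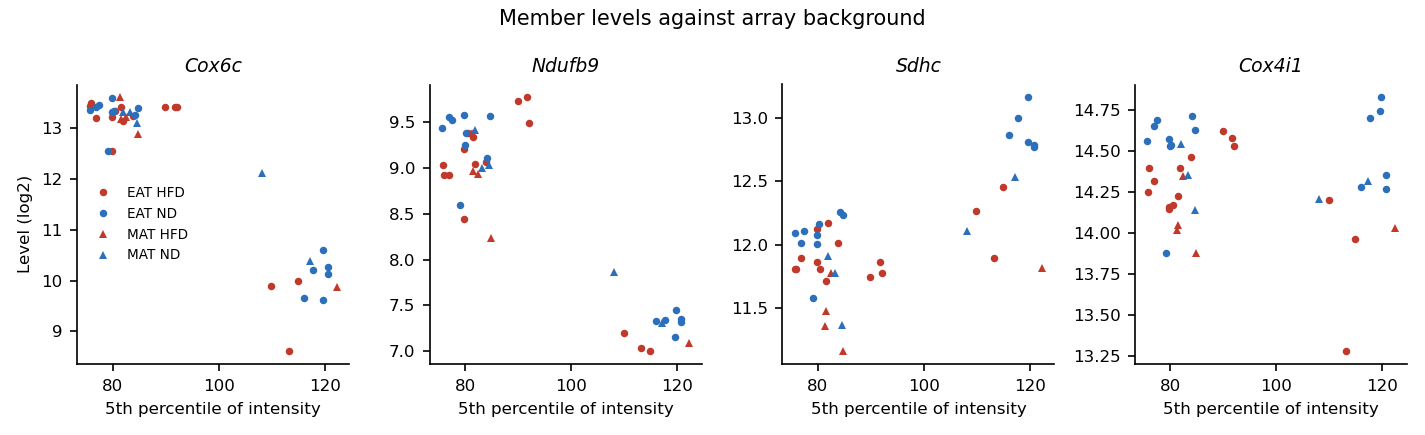
Level (normalized log2 intensity) of Cox6c, Ndufb9, Sdhc and Cox4i1 against the background of the array (5th percentile of intensity), HFD and ND in different colours, EAT as circles and MAT as triangles. In EAT, Cox6c lies at 8.60 to 10.61 and Ndufb9 at 7.00 to 7.45 on every array with a background over 100, and at 12.55 to 13.59 and 8.44 to 9.77 on the others.

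In EAT, calls for diet between 4 and 24 weeks came at weeks 20 and 24. They were modest falls of members of complexes I, II and III and the rise of 1 complex IV isoform. At 20 weeks, with all arrays, members passed no more often than all probes did. At 24 weeks 53 of 59 members were lower on the HFD, with a median log2 change of -0.50, against -0.0027 for all probes. Of these 8 passed the test downward and 1 upward, where 10.5% of all probes passed (5.99% higher and 4.51% lower). At 20 weeks 42 members were higher and 16 lower, with a median of 0.20, and 1 passed upward and 2 downward, against 7.39% of all probes (3.85% higher and 3.54% lower). For the mean of weeks 4, 8, 20 and 24 (the mean diet effect), 51 members were lower with a median of -0.18, and 1 passed upward and 9 downward, against 11.5% of all probes (5.81% higher and 5.68% lower). A test here is limma's moderated test over all probes, passed at a Benjamini-Hochberg adjusted p under 0.05 with no minimum fold.

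The medians turned on the low arrays. Some calls at 24 weeks, given below, were lost when HFD pool 2 alone was left out. With all the low arrays left out, every member called at 20 weeks, at 24 weeks or for the mean kept its call. Without these arrays the median was -0.06 at 24 weeks and -0.10 at 20 weeks, and the mean diet effect had a median of -0.10. The members that passed were then 10 of 59 at 24 weeks, 8 at 20 weeks (1 up and 7 down) and 18 for the mean (1 up and 17 down), where 11.9%, 7.49% and 14.9% of all probes passed.

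**Figure D3:**
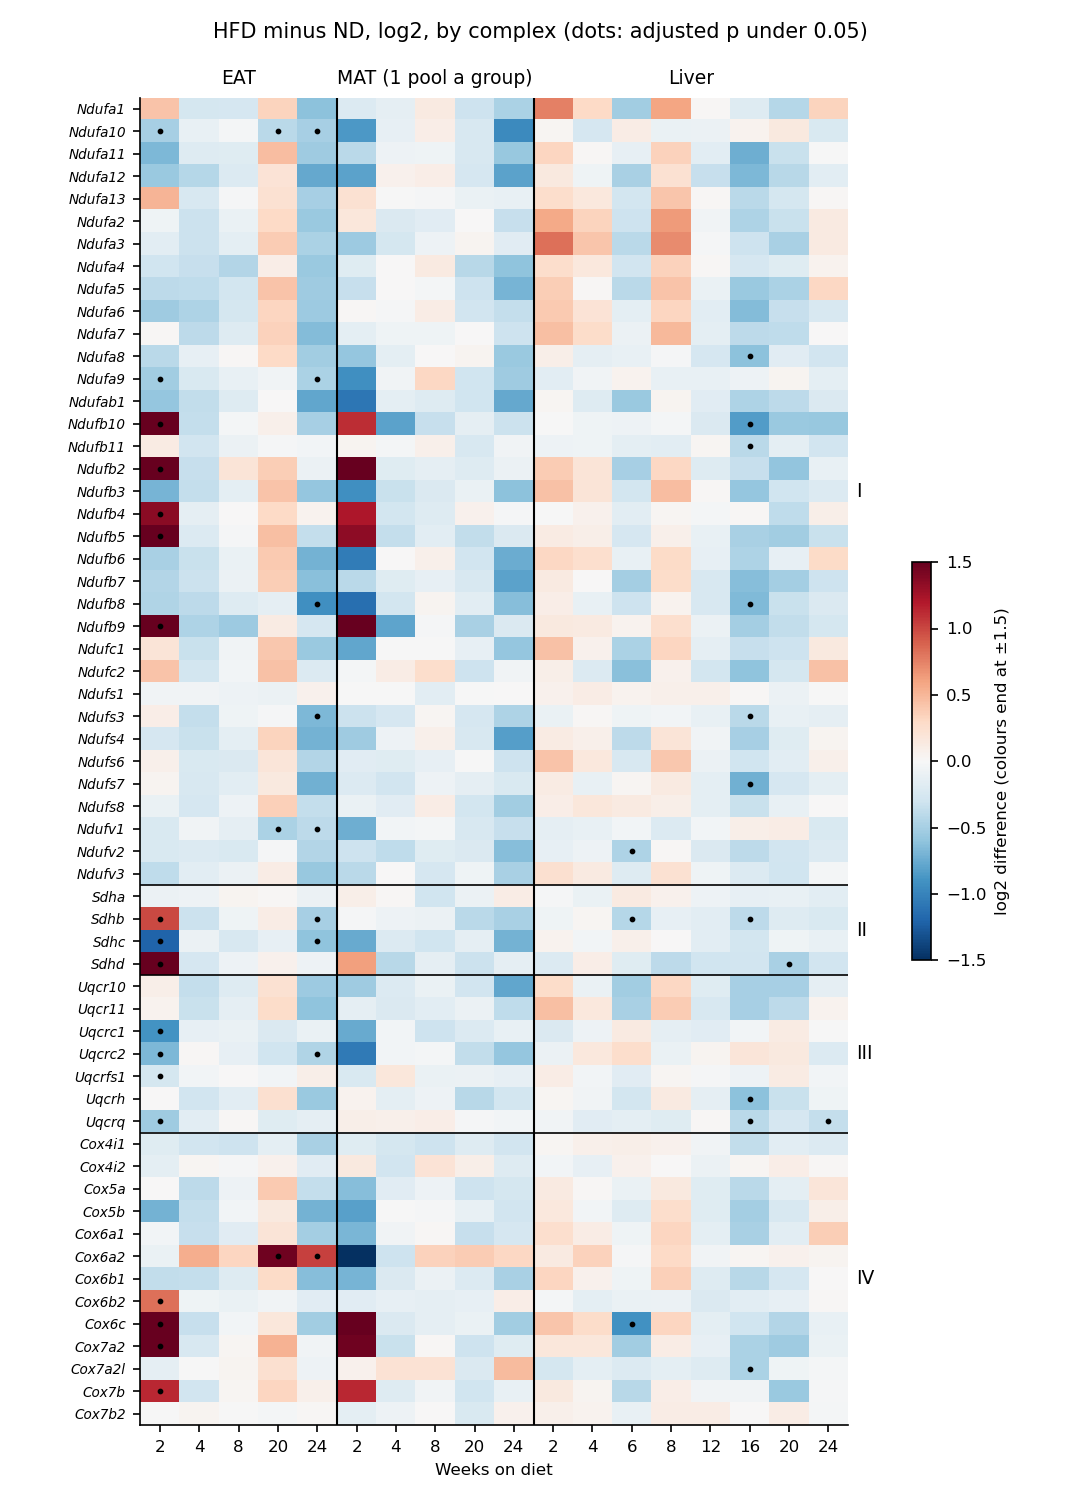
Log2 change on HFD against ND of each of the 59 members (lines, grouped by complex) at each week in EAT, MAT and liver (columns); red is higher on HFD, blue lower, colours end at 1.5 either way, and dots mark an adjusted p under 0.05 (EAT and liver). In EAT the calls at 24 weeks are 8 lower and 1 higher (Cox6a2), and in liver most calls lie at 16 weeks.

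Complex I is by far the largest group of members, and its share of falls in EAT at 24 weeks (5 of 35) was close to that of all members (8 of 59). None of its members passed upward, its median was -0.53, and for the mean diet effect 6 passed downward. Ndufa10, an accessory subunit of the matrix-facing part of complex I, lay at 12.95, 13.10 and 12.96 on HFD at 24 weeks, against 13.46, 13.36 and 13.69 on ND. The diets did not overlap, and the log2 change was -0.50 ± 0.08 (SE, n = 3 pools each, limma adjusted p = 0.0001869), or 1.41-fold lower. At 20 weeks it lay at 12.76, 12.90 and 12.76 on HFD, against 13.18, 13.33 and 13.15 on ND, again without overlap (-0.41 ± 0.08, adjusted p = 0.002304). At 4 and 8 weeks its log2 changes were -0.11 and -0.03 and did not pass. Ndufa10 was the only member whose diet effect differed between weeks 4, 8, 20 and 24 by limma's F-test (F = 7.37, adjusted p = 0.02753), where 5.79% of all probes passed.

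Ndufv1, the core subunit that binds NADH and hands its electrons to the flavin, lay at 13.23, 13.26 and 13.27 on HFD at 20 weeks, against 13.98, 13.66 and 13.56 on ND (-0.48 ± 0.10, adjusted p = 0.00267). At 24 weeks it lay at 13.42, 13.42 and 13.11 on HFD, against 13.69, 13.66 and 13.76 on ND (-0.39 ± 0.10, adjusted p = 0.01125). The pools of the diets did not overlap at either week. With median scaling in place of quantile scaling, the changes at 20 weeks were -0.10 for Ndufv1 (adjusted p = 0.6121) and -0.07 for Ndufa10 (adjusted p = 0.8306), and neither passed. At 24 weeks Ndufv1 lost its call without HFD pool 3 (-0.28, adjusted p = 0.08845) or ND pool 3 (-0.36, adjusted p = 0.0567). Ndufs3, a core subunit of the arm that passes electrons to ubiquinone, lay at 11.83, 10.92 and 11.82 on HFD at 24 weeks, against 12.19, 12.23 and 12.18 on ND (-0.68 ± 0.17, adjusted p = 0.00992). Ndufb8, an accessory membrane subunit, lay at 13.58, 12.25 and 13.49 on HFD, against 14.12, 13.99 and 13.95 on ND (-0.92 ± 0.24, adjusted p = 0.01235). Every HFD pool was below every ND pool for both genes, and HFD pool 2, the low array of that week, was the lowest. Without that pool the log2 changes were -0.38 for Ndufs3 (adjusted p = 0.09306) and -0.49 for Ndufb8 (adjusted p = 0.1117), so that neither passed. Without all the low arrays the changes were the same and both passed (adjusted p = 0.0002236 and 0.0001837). Ndufb8 also lost its call without ND pool 1 (-0.87, adjusted p = 0.05025). A second Ndufb8 probe gave -0.49 (adjusted p = 0.00496) with all pools.

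Ndufa9, an accessory subunit near the ubiquinone site, lay at 12.76, 12.71 and 12.72 on HFD at 24 weeks, against 13.04, 13.11 and 13.47 on ND (-0.48, adjusted p = 0.003257). The remaining member of complex I to pass in EAT was Ndufb9, an accessory membrane subunit, at -0.28 for the mean diet effect (adjusted p = 0.03813). Its sign turned to 0.24 with week 2 included (adjusted p = 0.0276). At 20 weeks, when Ndufv1 and Ndufa10 fell, the median of complex I was 0.29. Ndufs1, the core subunit with most of the iron-sulfur clusters, was not detected in EAT.

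The stretches before the start sites are shown for members that fell, because NRF1 and GABPA are known activators of many respiratory chain genes. RefSeq's promoter table (GRCm38.p6, 250 bases before to 50 after each start) held 49 of the 59 members, and not Cox4i1, Cox4i2, Cox6a2, Cox6c, Ndufa2, Ndufb9, Ndufs1, Sdhc, Uqcrc2 or Uqcrq. Letters of 4 factors were searched on both strands. The NRF1 letters GCGCANGCG stood in 12 of the 49 promoters (24.5%), against 7.03% of 27025 genes, and the GABPA letters CCGGAAG in 10 (20.4%), against 9.93%. The YY1 letters AAGATGGCG stood in 5 (10.2%), against 1.64%, and the ERR alpha letters TCAAGGTCA in 1 (2%), against 0.466%. The last letters of the GABPA motif can overlap the first of the YY1 motif. The 150 bases before the start follow for 3 complex I genes that fell and for Cox6a1, the partner isoform of Cox6a2, each read 5′ to 3′ on the gene's own strand (the minus strand in all 4), with matched letters in capitals.
Ndufa10 (chr1:92473759-92473908): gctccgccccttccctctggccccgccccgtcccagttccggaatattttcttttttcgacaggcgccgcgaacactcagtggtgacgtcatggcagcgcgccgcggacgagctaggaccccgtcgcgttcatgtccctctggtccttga
Ndufv1 (chr19:4012756-4012905): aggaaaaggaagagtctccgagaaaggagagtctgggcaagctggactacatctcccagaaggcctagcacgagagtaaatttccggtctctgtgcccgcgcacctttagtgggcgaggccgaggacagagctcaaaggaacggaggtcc
Ndufs3 (chr2:90904722-90904871): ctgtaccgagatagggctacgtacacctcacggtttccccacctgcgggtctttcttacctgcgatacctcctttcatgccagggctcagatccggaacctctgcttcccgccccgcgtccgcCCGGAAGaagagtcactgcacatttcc
Cox6a1 (chr5:115348959-115349108): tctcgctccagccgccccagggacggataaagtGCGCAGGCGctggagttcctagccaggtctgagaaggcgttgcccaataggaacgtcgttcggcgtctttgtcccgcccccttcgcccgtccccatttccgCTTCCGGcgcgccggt
The capitals in Ndufs3 are the GABPA letters, 27 bases before the start. In Cox6a1 they are the NRF1 letters 117 bases before it and, as the reverse complement, the GABPA letters 16 bases before it. The stretches of Ndufa10 and Ndufv1 hold none of the 4 letter strings, which says only that those letters are not in this window.

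Complex II fell in part in EAT. Sdhc, a membrane anchor of succinate dehydrogenase, lay at 12.27, 11.90 and 12.45 on HFD at 24 weeks, against 12.79, 12.77 and 12.87 on ND. No HFD pool reached an ND pool, and the log2 change was -0.60 ± 0.12 (SE, n = 3 pools each, adjusted p = 0.001118), or 1.52-fold lower. Sdhb, the iron-sulfur subunit, lay at 10.49, 9.84 and 10.32 on HFD, against 10.60, 10.65 and 10.89 on ND (-0.50 ± 0.13, adjusted p = 0.01258). Its diets lay close without overlapping, and without HFD pool 2 its log2 change was -0.31 (adjusted p = 0.1251) and without ND pool 3 -0.41 (adjusted p = 0.09004). Without all the low arrays Sdhb passed (-0.31, adjusted p = 0.02706). Sdhd, the other anchor, was undetected on both diets at 24 weeks, and Sdha, the catalytic flavoprotein, was not detected in EAT, so the complex was measured only in part there. A further Sdhb probe gave -0.63 (adjusted p = 0.009937) and another 0.03, and a further Sdhc probe gave -0.02 (adjusted p = 0.9225). Sdhc and Ndufa10 passed at 24 weeks under all 14 alternative settings that had no minimum fold. Their log2 changes lay between -0.76 and -0.45 for Sdhc and between -0.67 and -0.40 for Ndufa10, so neither met the 2-fold minimum.

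In complex III, 1 of 7 members passed at 24 weeks in EAT. Uqcrc2, a core protein of the matrix side, lay at 12.77, 13.31 and 12.81 on HFD, against 13.31, 13.31 and 13.62 on ND (-0.45, adjusted p = 0.03321), and the pools overlapped. It did not pass without HFD pool 1 (-0.35, adjusted p = 0.1618), HFD pool 3 (-0.37, adjusted p = 0.1342) or ND pool 3 (-0.34, adjusted p = 0.1927). Its partner Uqcrc1 gave -0.10 at 24 weeks and -0.22 at 20 weeks, without passing. Uqcrfs1, the Rieske iron-sulfur protein, was detected on too few EAT arrays for a fold.

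In complex IV, 1 tissue isoform rose in EAT at 20 and 24 weeks, and no other of the 13 members passed at these weeks. Cox6a2, the isoform of subunit VIa known from heart and skeletal muscle, lay at 8.72, 8.47 and 8.57 on HFD at 20 weeks, against 6.79, 7.24 and 7.35 on ND. At 24 weeks it lay at 8.86, 7.97 and 8.72 on HFD, against 7.67, 7.58 and 7.22 on ND. The diets did not overlap at either week. The log2 changes were 1.46 ± 0.28 at 20 weeks (adjusted p = 0.001104, 2.75-fold) and 1.02 ± 0.28 at 24 weeks (adjusted p = 0.01729, 2.03-fold). At 24 weeks the call was lost without HFD pool 1 (0.85, adjusted p = 0.09005), without HFD pool 3 (0.92, adjusted p = 0.06897) or without ND pool 3 (0.89, adjusted p = 0.09378). The mean diet effect was 0.84 ± 0.14 (adjusted p = 0.0001411) and passed under all 11 alternatives. Cox6a2 was dim: it was detected in 2, 1, 3, 3 and 3 of 3 HFD pools at weeks 2, 4, 8, 20 and 24, and in 0, 0, 0, 2 and 3 ND pools, and background correction moved its change at 20 weeks to 2.58.

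Since Cox6a2 is a muscle gene, the skeletal muscle list of 12 genes was read beside it. At 20 weeks this list averaged 7.49 to 7.53 on HFD, against 7.35 to 7.56 on ND, and at 24 weeks 7.34 to 7.59 on HFD, against 7.29 to 7.47 on ND. The list averages of the diets overlapped at both weeks. Within the list Pvalb, a calcium buffer of fast fibres, rose at 20 weeks (2.54, adjusted p = 0.0005163) and at 24 weeks (1.64, adjusted p = 0.01853), and Acta1, skeletal actin, fell at 20 weeks (-1.81, adjusted p = 0.0006054). At 4 weeks HFD pool 2 held Cox6a2 at 8.49 with a skeletal muscle list average of 9.28, the highest of the list in EAT. The brown adipocyte list had 0 of 9 genes past the test at 20 and at 24 weeks. The part of muscle or brown adipocytes in the Cox6a2 rise was not tested.

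**Figure D4:**
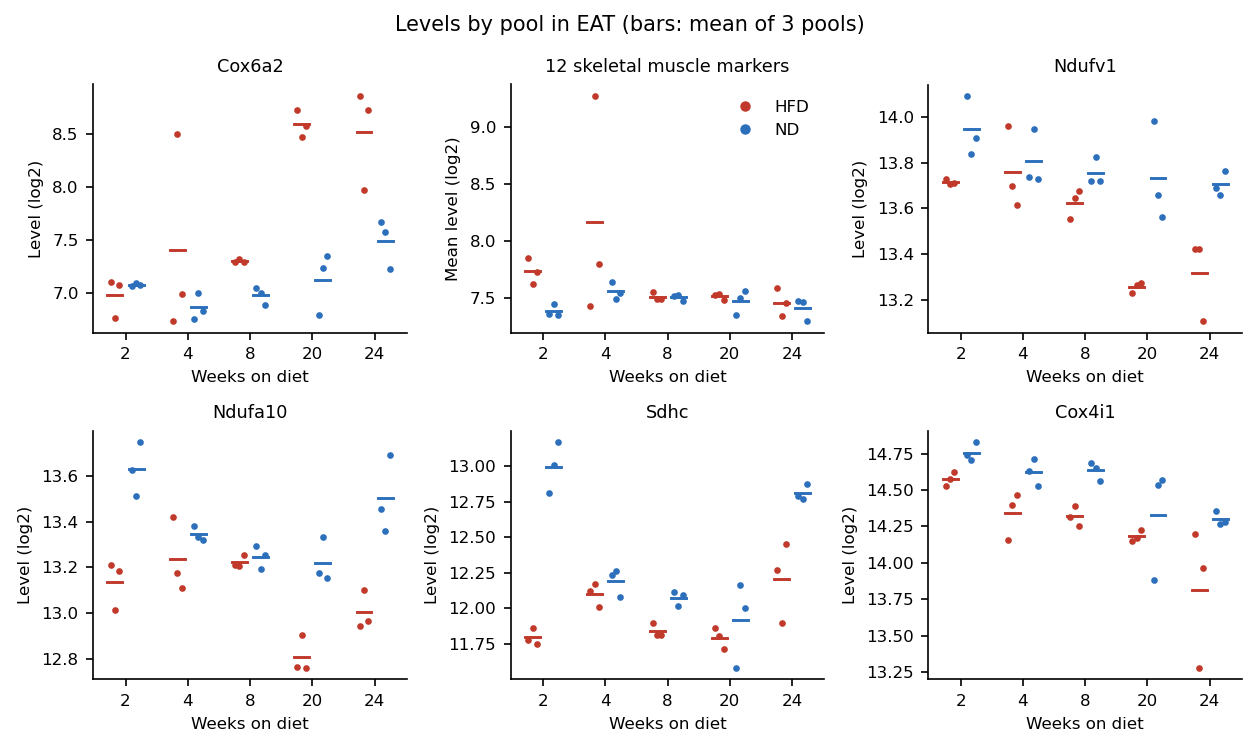
Level (normalized log2 intensity) of Cox6a2, the mean of 12 skeletal muscle genes, Ndufv1, Ndufa10, Sdhc and Cox4i1 in each EAT pool by week, HFD (red) left of ND (blue), bars marking the mean of 3 pools. At weeks 20 and 24 Cox6a2 lies at 7.97 to 8.86 on HFD and 6.79 to 7.67 on ND, and Ndufa10 at 12.76 to 13.10 on HFD and 13.15 to 13.69 on ND.

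The partner isoforms did not pass in EAT at 20 or 24 weeks. Cox6a1, the widely expressed form of VIa, gave 0.20 at 20 weeks and -0.51 at 24 weeks (adjusted p = 0.3721). Cox6b1 gave 0.29 and -0.64, Cox7a2 0.52 and -0.05, Cox7a2l (a supercomplex assembly subunit) 0.24 and -0.08, Cox7b 0.32 and 0.08, Cox4i2 0.07 and -0.17 and Ndufa4 0.10 and -0.56, at 20 and 24 weeks. The core-facing subunits Cox5a and Cox5b gave -0.36 and -0.70 at 24 weeks, and neither passed. These differences at 24 weeks were as large as some that passed in complexes I and II, with larger standard errors (0.30 for Cox5b and 0.28 for Cox6b1). Cox4i1, the common regulatory subunit IV, passed for the mean diet effect (-0.31 ± 0.08, adjusted p = 0.01072) but not at 24 weeks (-0.49, adjusted p = 0.05406). Without replicate 2 of every group the mean was -0.22 (adjusted p = 0.1961) and without replicate 3 -0.33 (adjusted p = 0.1426). Its pools lay at 14.32, 14.39 and 14.25 on HFD at 8 weeks, against 14.69, 14.65 and 14.56 on ND, and at 14.20, 13.28 and 13.96 on HFD at 24 weeks, against 14.35, 14.27 and 14.28 on ND. HFD lay below ND at both weeks, whereas at 20 weeks the diets overlapped because ND pool 1 lay at 13.88.

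Some genes next to the respiratory chain fell at 24 weeks in EAT as well, when 4.51% of all probes passed downward and 5.99% upward. Of the tricarboxylic acid cycle and pyruvate dehydrogenase list, 7 of 15 genes fell at 24 weeks and 0 rose, with a median of -0.32, including Pdha1 at -0.72, Fh1 (fumarase) at -0.64 and Mdh2 (malate dehydrogenase) at -0.52. Of ATP synthase 2 of 13 fell (Atp5c1 at -0.55 and Atp5o at -0.72) with a median of -0.37. Of the cytochrome c list 2 of 4 fell, namely Cyc1, the haem subunit of complex III, at -0.72 and Cycs, cytochrome c itself, at -0.50. Of 15 assembly factors 4 fell, and of 14 import and ribosome genes 2 fell. The 9 biogenesis regulators were split, with Nrf1 (0.41) and Gabpa (0.33) higher and Ppargc1b (-0.50) and Tfb2m (-0.36) lower. For the mean diet effect the counts were 0 up and 8 down of 15 for the cycle list, 0 up and 2 down of 13 for ATP synthase and 2 up and 3 down of 15 for assembly factors. Of all probes 5.81% passed upward and 5.68% downward for that mean.

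Markers of macrophages and adipocytes moved with diet in EAT at the same weeks. The macrophage list of 13 genes averaged 11.75 to 11.82 on HFD at 20 weeks, against 10.05 to 10.73 on ND, and 11.09 to 11.48 on HFD at 24 weeks, against 10.07 to 10.28 on ND. Of it 12 genes rose at 20 weeks and 11 at 24 weeks, with medians of 1.27 and 1.23. The adipocyte list of 14 genes averaged 12.25 to 12.54 on HFD at 24 weeks, against 12.79 to 12.91 on ND, and 7 of its genes fell with a median of -0.40. Adipoq, which encodes adiponectin, changed by -0.61 at 24 weeks (adjusted p = 0.0001548). In a whole tissue, fewer adipocytes and less RNA per adipocyte cannot be told apart, and the part of these cell types in the members' falls was not tested.

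At the earlier weeks few members could be tied to diet in EAT. At 4 weeks 55 of 59 members were lower on HFD, with a median of -0.28, yet 0 passed in limma, where 0.411% of all probes did. At 8 weeks 49 were lower with a median of -0.10, and 0 passed, against 0.709% of all probes. At 4 weeks the epididymis epithelium list was high in HFD pools 2 and 3 (13.23 and 14.10), and its part in these values was not tested. HFD pool 1 of that week was a low array, and week 4 is part of the mean diet effect.

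At 2 weeks, where diet and array background coincide, 11 members were higher and 7 lower on HFD past the test, against 36.2% of all probes (14.5% higher and 21.7% lower). Other cell types moved with diet at this week as well. The testis and sperm list averaged 12.18, 8.84 and 7.69 in the HFD pools, against 6.91, 6.88 and 7.16 in the ND pools, with 5 of 6 genes up and a median of 2.28. Of the hepatocyte list 6 of 12 genes rose (median 1.351) and of the mesothelium list 3 of 7 (median 0.48). Cox6b2, an isoform known from testis and among the 11 rises, lay at 9.51, 8.06 and 7.85 on HFD, against 7.45, 7.82 and 7.67 on ND, highest in the HFD pool where the testis and sperm list was highest, and the part of these cell types in the members' changes was not tested. Cox6c lay at 13.42, 13.42 and 13.41 on HFD, against 9.61, 10.22 and 10.61 on ND (3.28, adjusted p = 2.807e-09). Sdhc lay at 11.78, 11.87 and 11.75 on HFD, against 12.81, 13.01 and 13.17 on ND (-1.20, adjusted p = 2.522e-08). The groups were far apart for both. The next largest rises were Ndufb5 (2.64), Ndufb9 (2.35), Ndufb2 (2.10) and Ndufb10 (2.08), accessory membrane subunits of complex I, and the other falls included Uqcrc1 (-0.89) and Uqcrc2 (-0.67). Cox7b and Ndufb4, undetected in every ND pool, were at least 1.64-fold and at least 2.24-fold higher on HFD. Probes of a gene disagreed here: the brightest Ndufs4 probe gave -0.26, and its 3 other probes 2.10, 2.83 and 2.32. Of 30 other probes of members 13 passed and 6 had the sign opposite to the brightest. The ND change from week 20 to week 24 crosses the same array sides in the other direction. Adding it to the week-2 change left 0 of 59 past the test, where 5.09% of all probes passed. Of the members 47 were then higher, with a median of 0.21. This sum has a wider error, because it rests on more groups, and the ND pools of 20 weeks include a low array. The part of array background in the week-2 changes was not tested.

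Over time on the ND, few EAT members passed between arrays of like background. Between weeks 20 and 4, 55 of 59 were lower at 20 weeks with a median of -0.38, and 1 passed downward (Ndufa9, -0.38), against 5.78% of all probes (2.41% lower). Without the low arrays that median was -0.10 and Ndufa9 no longer passed, while Ndufa4 did. Between weeks 24 and 2, Cox7a2l was higher at 24 weeks (0.46) and Uqcrq, a small complex III subunit, lower (-0.32), against 9.08% of all probes (4.16% higher and 4.92% lower).

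In liver the members that passed for the mean diet effect all fell, by 0.105 to 0.294 on the log2 scale. For the mean of the 8 weeks, 47 of 59 members were lower on HFD with a median of -0.07, and 12 passed downward and 0 upward, where 14.6% of all probes passed (7.43% lower). They were 7 of 35 complex I members, 2 of 4 of complex II, 1 of 7 of complex III and 2 of 13 of complex IV. Passing under all 8 alternatives were Sdhd (-0.26 ± 0.04, adjusted p = 1.01e-05), Uqcrq (-0.19 ± 0.03, adjusted p = 5.747e-06), Sdhb (-0.19 ± 0.04, adjusted p = 0.000103), Cox7a2l (-0.19 ± 0.04, adjusted p = 7.897e-05), Ndufv2 (-0.22 ± 0.05, adjusted p = 0.001664) and Ndufb11 (-0.16, adjusted p = 0.0003841). Ndufb10 (-0.29), Ndufab1 (-0.24, the mitochondrial acyl carrier protein), Ndufb8 (-0.21), Ndufa8 (-0.19), Ndufs3 (-0.12) and Cox6b2 (-0.11) passed too, each losing its call under at least 1 alternative. Sdhd, Sdhb and Ndufb10 are among the 9 members that followed array background in EAT. The background of the liver arrays is not known here, and no alternative in liver corrected for it. By limma's F-test the diet effect differed between weeks for 0 of 59 members, of which 6 had an unadjusted p under 0.05, against 5.37% of all probes.

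Sdhd, the anchor that was undetected in EAT at 24 weeks, was lower on HFD in most weeks in liver. At 20 weeks it lay at 8.94, 8.93 and 8.95 on HFD, against 9.37, 9.62 and 9.30 on ND (-0.49, adjusted p = 0.01386). At 24 weeks it lay at 7.57, 7.62 and 7.71 on HFD, against 8.03, 7.99 and 7.74 on ND, and at 12 weeks at 8.41, 8.33 and 8.62 on HFD, against 8.74, 8.78 and 8.72 on ND. The groups did not overlap at these weeks, and Sdhd was lower on HFD in 7 of 8 weeks. Uqcrq lay at 9.08, 9.11 and 9.47 on HFD at 24 weeks, against 9.59, 9.60 and 9.54 on ND (-0.36, adjusted p = 0.008149), with every HFD array lower. Ndufv2, the partner of Ndufv1 in the NADH-binding module, lay at 12.31, 12.22 and 12.30 on HFD at 6 weeks, against 12.75, 12.73 and 12.73 on ND (-0.46), and at 12.74, 12.71 and 12.76 on HFD at 12 weeks, against 12.99, 12.88 and 12.98 on ND. Cox7a2l and Ndufb10 were lower on HFD in 8 of 8 weeks. Other probes of Ndufa8 (-0.33), Ndufb10 (-0.30) and Ndufb8 (-0.16) passed in the same direction, whereas those of Uqcrq (-0.02), Ndufb11 (-0.01) and Cox6b2 (-0.01) did not.

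**Figure D5:**
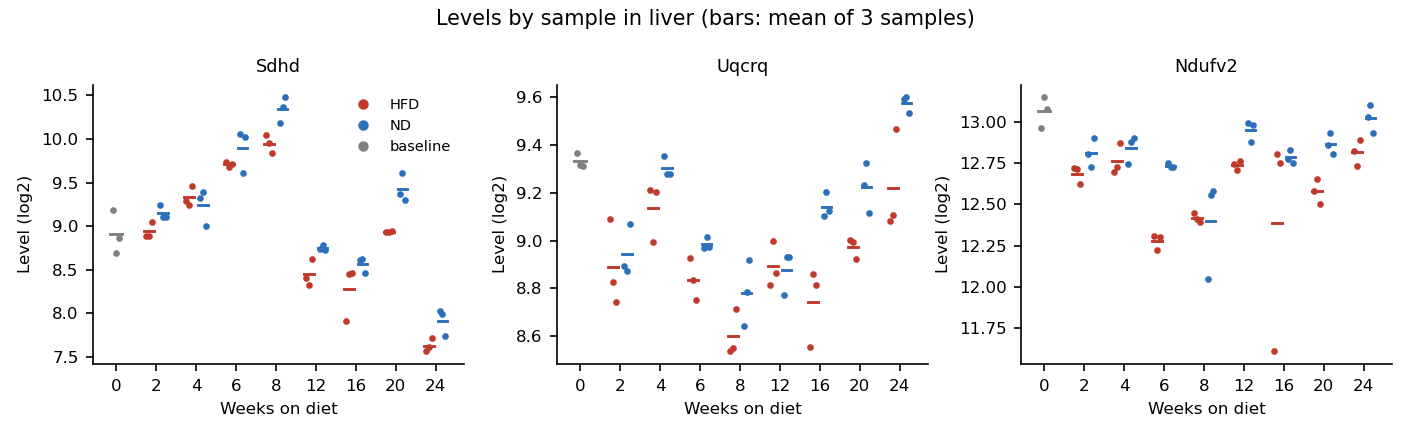
Level (normalized log2 intensity) of Sdhd, Uqcrq and Ndufv2 in each liver array by week, HFD left of ND, with the baseline arrays at 0 weeks in grey and bars marking means of 3. Sdhd ranges widely over the weeks on both diets, and at 20 weeks its HFD arrays lie at 8.93 to 8.95 and its ND arrays at 9.30 to 9.62.

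The single weeks in liver depended on single arrays. At 16 weeks 10 members passed downward with a median of -0.40, against 6.12% of all probes (2.67% lower), led by Ndufb10 (-0.84), Ndufs7 (-0.72), Ndufb8 (-0.66), Ndufa8 (-0.61) and Uqcrh (-0.61). Ndufb10 lay at 9.19, 10.59 and 10.61 on HFD, against 11.13, 11.09 and 10.69 on ND, and its first HFD array stood far below the rest. Without that array 0 of the 10 passed, the median was -0.04 with the low arrays left out, and Ndufb10 gave -0.37 (adjusted p = 0.4391). At 6 weeks Cox6c (-0.91), Ndufv2 (-0.46) and Sdhb (-0.42, adjusted p = 0.005989) fell, against 7.43% of all probes (3.45% lower). At 20 weeks Sdhd alone fell, against 2.78% (1.01% lower), and at 24 weeks Uqcrq alone, against 5.08% (2.09% lower). Sdhd at 20 weeks did not pass without HFD array 2 (adjusted p = 0.05373), HFD array 3 (adjusted p = 0.05181) or ND array 2 (-0.40, adjusted p = 0.145), nor Uqcrq at 24 weeks without HFD array 1 (adjusted p = 0.09822) or 2 (adjusted p = 0.09681). At 6 weeks Cox6c and Sdhb did not pass without HFD array 2 (-0.64, adjusted p = 0.252, and -0.35, adjusted p = 0.06058), and Cox6c without any single ND array and Ndufv2 without any single array of that week did not pass either. With all the low arrays left out, Cox6c, Ndufv2 and Sdhb all passed at 6 weeks. At weeks 2, 4, 8 and 12 the count was 0 in limma, against 1.81%, 2.64%, 3.61% and 1.16% of all probes.

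Liver levels of some members also differed between times on the ND. Over baseline and 8 weeks 29 of 59 members differed by limma's F-test, against 41.8% of all probes, and Sdhd (F = 70.5) and Ndufb9 (F = 22.0) moved most. Sdhd lay at 9.19, 8.69 and 8.87 at baseline, at 10.19, 10.36 and 10.48 at 8 weeks and at 8.03, 7.99 and 7.74 at 24 weeks on the ND. It was highest at 8 weeks and lowest at 24. Between weeks 24 and 2 on the ND, 9 members were higher and 9 lower at 24 weeks, against 19% of all probes (9.57% higher and 9.38% lower), and the falls included Sdhd (-1.23), Ndufb9 (-1.22), Cox6c (-1.09), Cox7a2 (-0.85) and Ndufb5 (-0.76). Between weeks 20 and 4 on the ND 0 of 59 passed, against 0.711% of all probes. The 5 genes just named are among the 9 that followed array background in EAT, and the background of the liver arrays is not known here.

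For the mean diet effect in liver, more genes of the neighbouring lists fell than rose, where 14.6% of all probes passed (7.43% lower). The biogenesis regulators gave 0 up and 5 down of 9, with Ppargc1a at -0.44, Esrra at -0.29 and Tfam at -0.24. The cycle list gave 1 up and 7 down of 15, with Fh1 at -0.30 and Suclg2 at 0.18. ATP synthase gave 0 up and 4 down of 13, and the cytochrome c list 0 up and 3 down of 4, with Cycs at -0.25. The macrophage list gave 12 up and 0 down of 13 with a median of 0.82, and the hepatocyte list 1 up and 1 down of 12.

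MAT had 1 pool for each diet and week, so a diet effect could be tested only over the 5 weeks as pairs. There 50 of 59 members were lower on HFD with a median of -0.20, and 0 passed, where 0% of all probes did. In limma 24 members, all lower, had an unadjusted p under 0.05. The share of all probes under that unadjusted threshold was not counted. The 5 pairs include week 2, when diet and array background coincide. In that pair the skeletal muscle list also differed, with a median change of -4.86 on HFD against ND. Its part in the members' mean changes was not tested. Sdhc lay at 11.36, 11.16, 11.47, 11.78 and 11.82 on HFD at weeks 2, 4, 8, 20 and 24, against 12.11, 11.36, 11.77, 11.91 and 12.53 on ND. It was lower on HFD at every week, and its mean change was -0.42 ± 0.11 (SE, n = 5 pairs, adjusted p = 0.8119). Ndufab1 lay at 12.62, 12.34, 12.62, 12.83 and 12.82 on HFD, against 13.71, 12.48, 12.81, 13.12 and 13.59 on ND (-0.50 ± 0.15, adjusted p = 0.8119), again lower at every week. Its change was largest at week 2 (-1.09). Ndufb3 (-0.44) and Ndufb8 (-0.43, with -1.13 at week 2) followed. The largest mean rises were Ndufb2 (0.25), Ndufb4 (0.16), Cox7a2l (0.15), Cox7a2 (0.13) and Cox6c (0.11). Apart from Cox7a2l, these rises came from week 2, when diet and array background coincide. Ndufb2 gave 1.83 at week 2 and -0.18, -0.14, -0.19 and -0.08 at weeks 4, 8, 20 and 24, and Cox6c gave 1.5 at week 2 and -0.21, -0.14, -0.10 and -0.52 later. Ndufb4 and Cox7a2 gave 1.21 and 1.46 at week 2, and between -0.28 and 0.07 and between -0.34 and 0.02 at the later weeks. In all, 19 members were lower on HFD at all 5 weeks.

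Cox6a2 had the lowest mean change of all members in MAT (-0.65 ± 0.65), and this came from week 2, when it lay at 8.02 on HFD, against 12.00 on ND. In that ND pool the skeletal muscle list averaged 12.15, against 7.39 in the HFD pool and 7.22 to 7.43 in the other MAT pools. At weeks 4, 8, 20 and 24 Cox6a2 lay at 7.33, 7.50, 7.33 and 7.70 on HFD, against 7.64, 7.15, 6.96 and 7.39 on ND. It was lower on HFD at week 4 (-0.31) and higher at weeks 8, 20 and 24 (0.35, 0.37 and 0.31), with no test. At 2 weeks 8 members were over 2-fold higher and 5 over 2-fold lower on HFD, against 1.59% and 0.819% of all probes, and 0 members were over 2-fold at weeks 4, 8, 20 and 24, against 0.495%, 0.795%, 0.645% and 2.05%. The exocrine pancreas list was high early on both diets, averaging 15.11 on HFD at 2 weeks, against 15.01 on ND. Between weeks 20 and 4 on the ND, 55 of 59 members were higher at 20 weeks with a median of 0.37, with no test. Between these 2 single pools the median changes of the cell type lists were -4.56 for exocrine pancreas, 4.68 for intestinal epithelium, -2.66 for lymphocyte and 0.76 for adipocyte, and their part in the members' values was not tested.

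The members past the test downward for the mean diet effect in both EAT and liver were Ndufb8 and Ndufs3, 2 of EAT's 9 and 2 of liver's 12 such members. Of all probes 5.68% passed downward in EAT and 7.43% in liver. The share of all probes that passed in both was not counted, so this overlap is only a description. Ndufb8 changed by -0.41 in EAT and by -0.21 in liver, and gave -0.43 in MAT without passing. Ndufs3 changed by -0.28 in EAT and by -0.12 in liver, and gave -0.25 in MAT without passing. The means cover unlike weeks: EAT without week 2, liver with all 8 weeks and MAT with week 2. In MAT Ndufb8 gave -1.13 at week 2, and -0.28, 0.04, -0.16 and -0.64 at weeks 4, 8, 20 and 24. The sizes are therefore not like for like. Whether the diet effect differed between tissues was not tested.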

How the data were processed

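Illumina MouseWG-6 v2 arrays were hybridized with RNA from EAT, MAT and liver. The submitters' processing notes give BeadStudio 3.1.3, with which the authors extracted intensities, and R 2.4.1. The deposited linear intensities, each with a detection p-value, served for EAT and MAT. For liver the deposited log2 values, which the authors had quantile normalized, were used. Intensities were quantile normalized within EAT and within MAT (R 4.3.3), put on the log2 scale and not filtered. They differed from the authors' deposited log2 values by at most 0.0007146 in EAT and 0.001122 in MAT. Symbols came from the array annotation, with 34885 probes having 1 symbol, 18 several and 10378 none.

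HFD was compared with ND with limma 3.58.1 (lmFit, eBayes) in 1 fit over 30 EAT arrays and 1 over 51 liver arrays, and in MAT over 5 pairs with week as a block (4 residual degrees of freedom). P-values were adjusted over all 45281 probes by the Benjamini-Hochberg method, and a member was called at an adjusted p under 0.05. The methods' further minimum of a 2-fold change was an alternative. The procedure was tested on simulated data. The number of arrays limits the precision.

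Genes were named by a rule: per tissue and week the 5 largest called rises and falls without overlap, the 5 largest MAT differences each way, the Sdh genes, tissue isoforms and core subunits. The examples from the low arrays, the other probes and the genes of the lists were picked after their values were seen. Members, lists and alternatives were chosen with earlier results of these data known.

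The alternatives were median scaling, background correction (normexp, offset 16), filters on detection or signal, the mean of a gene's probes, a replicate block, each week fitted alone, and leaving out replicates. The alternative without the arrays on which members lay low was chosen after seeing the data. The chip of an array is not given in the sources used here.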

Additional observations from a re-analysis of the deposited data

Results flagged for a closer look

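In EAT the diet effect differed between weeks 4, 8, 20 and 24 for 1 of 59 members by limma's F-test of the difference itself. Of all probes 5.79% passed that test, so the members passed no more often. The member was Ndufa10 (F = 7.37, adjusted p = 0.02753), with log2 changes on HFD against ND of -0.11, -0.03, -0.41 and -0.50 at weeks 4, 8, 20 and 24. In liver the same test over the 8 weeks passed for 0 of 59 members, against 5.37% of all probes, and 6 members had an unadjusted p under 0.05.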

How the results depend on the processing

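Counts of members called (adjusted p under 0.05 in limma, of 59) depended on the setting, and for each change the cause was not tested. The share of all probes that passed can move with the setting too. Counts below that stand without such a share are only a description. With arrays scaled to their medians, not by quantiles, EAT gave 1 at 20 weeks, 4 for the mean diet effect, 4 for an effect that differs between weeks, 0 for ND 20 against 4 weeks and 1 for ND 24 against 2 weeks, and MAT had 21 members over 2-fold at 2 weeks. Ndufv1 and Ndufa10 were then -0.10 and -0.07 at 20 weeks. That scaling moved the median of all probes to -0.10 at 2 weeks, against -0.05, and the members' median for ND 24 against 2 weeks to 0.05, against -0.10. With a further minimum of 2-fold, EAT kept 10, 1 and 1 at 2, 20 and 24 weeks and liver 0 at 6, 16, 20 and 24 weeks. With each week fitted alone, EAT gave 5 at 8 weeks and 2 at 24 weeks, and liver 8, 7, 0, 26 and 10 at 6, 12, 16, 20 and 24 weeks. With the ND change from week 20 to week 24 added, EAT gave 0 at 2 weeks, against 5.09% of all probes. Ndufa9 (0.21) and Uqcrc2 (0.022) then turned in sign. With 2 weeks included, EAT gave 20 for the mean, where Ndufb9 turned to 0.24, and 17 for the difference between weeks. With HFD pools 2 and 3 of 4 weeks left out, EAT gave 1 at 4 weeks. With the mean of a gene's probes, EAT gave 2 for the difference between weeks and liver 2 at 24 weeks. With probes above the median signal, liver gave 5, 1 and 3 at 6, 8 and 24 weeks. With normexp, 1 MAT member was over 2-fold at 4 weeks. Without the low arrays, EAT gave 35, 1, 3 and 8 at 2, 4, 8 and 20 weeks, against 41%, 3.13%, 1.98% and 7.49% of all probes. It gave 18 for the mean (14.9% of all probes) and 6 for ND 24 against 2 weeks (13.7%). Liver gave 4, 1, 7 and 2 at 2, 4, 6 and 8 weeks, against 3.82%, 3.87%, 9.03% and 3.34% of all probes. It gave 1, 0, 15 and 10 at 12, 16, 20 and 24 weeks, against 1.9%, 3.04%, 4.83% and 7.38%. For the liver mean it was 20 (16.4%), and for ND 20 against 4 and 24 against 2 weeks 2 and 36 (2.03% and 22.2%). For the difference between weeks it was 10 and over the ND course 51. Leaving out 1 replicate at a time gave, in EAT, 3 to 5 at 20 weeks (5 without ND replicate 3), 5 to 15 at 24 weeks (5 without ND replicate 3, 15 without HFD replicate 1), 2 to 14 for the mean (2 without replicate 2, 14 without replicate 1), 0 to 1 for the difference between weeks, 0 to 1 for ND 20 against 4 weeks and 0 to 2 for ND 24 against 2 weeks. In liver it gave 0 to 1 at 4, 8, 12 and 20 weeks, 0 to 2 at 6 and 24 weeks, 0 to 25 at 16 weeks (0 without HFD replicate 1, 25 without HFD replicate 2), 7 to 19 for the mean (7 without replicate 2, 19 without replicate 1), 0 to 1 for the difference between weeks and 18 to 35 over the ND course. Replicate numbers did not pair the samples: in 0 of 13 pairs of groups did all same-numbered samples deviate together (correlation over 0.1). With the replicate number as a block liver gave 2 at 24 weeks, and Uqcrc2 lost its EAT mean call (adjusted p = 0.05733). Of the EAT mean calls, Ndufv1 passed in 10 of 11 alternatives, Ndufa9, Ndufb8, Sdhc and Cox4i1 in 8 and Ndufs3, Ndufb9 and Uqcrc2 in 7. In total 222 counts stayed within 1.5 times and 88 did not, and of values of single called members 679 kept their call and direction, 142 lost the call and 3 turned in sign.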
